A study of Homo sapiens with 8 samples.

Results

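HAP1 lines without SMARCB1 were set directly against HAP1 lines without SMARCA4, gene by gene. The genes were all rows of the authors' deposited table with 1000 or more reads summed over the 8 libraries of the series, 13459 of 19541. HAP1 is an established near-haploid human line derived from a chronic myeloid leukaemia. The SMARCB1 null was sampled as 2 libraries, made with CRISPR guides 1 and 2 against SMARCB1, and the SMARCA4 null as 2 libraries, made with guides 1 and 2 against SMARCA4. All 4 were taken at passage 12 with no drug or other treatment in the labels. The series also holds 2 libraries of a SMARCB1-SMARCA4 double null, at passages 15 and 18, both with SMARCB1 guide 1 and SMARCA4 guide 2. The double null counts wherever 8 libraries are named and is not otherwise reported. Wildtype HAP1 at passages 9 and 12 entered as the shared denominator of the deposited ratios. In the quotient of the ratios of the single nulls it cancels, and log2 of that quotient is called the contrast, positive where the SMARCB1 null was higher. The labels call both guides of a gene biological replicates. Each guide gave 1 library, so guide and sample cannot be told apart.

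The SWI/SNF or BAF complexes slide and evict nucleosomes at promoters and enhancers, and both deleted genes encode parts of them. SMARCA4 is the ATPase motor, and SMARCA2 is its paralogue, which can take its place. SMARCB1 is a core subunit of canonical BAF and of PBAF, whereas non-canonical BAF, marked by BRD9 and GLTSCR1 or GLTSCR1L, is assembled without it. Loss of SMARCB1 is known from rhabdoid tumours, and loss of SMARCA4 from small cell carcinoma of the ovary of the hypercalcaemic type and from some lung cancers.

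The deposited values are ratios, so reads per library were recovered only where a whole-number solution matched a gene's total and 3 ratios within a set tolerance. That held for 1929 of the 13459 genes (14.3%). The closest solution found was kept, and whether it was the only one was not tested. Reads are given scaled to the mean depth of the 8 libraries. Depth, in units of 1e6 reads, was 70.2 and 67.9 in the SMARCB1-null libraries, against 92.3 and 71.5 in the SMARCA4-null libraries and 81.8 and 68.3 in wildtype. Libraries are known as the deeper and the shallower of a pair and are listed in that order, but which guide each had is not known. For the other genes only the mean level of each group could be computed, on the same scale. The error of this computation was measured on recovered genes only, without levels near 0. There its median was 0.257% in the SMARCB1 null and 0.256% in the SMARCA4 null. Its size in the other genes was not tested. These mean levels are called group levels, and they carry no spread. Where 3 group levels follow a gene's name without labels, they belong to the SMARCB1 null, the SMARCA4 null and wildtype in that order.

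A single library stood apart. The 6 skeletal muscle markers with recovered reads summed to 1763 and 22.1 scaled reads in the SMARCB1-null libraries, 16.2 and 12.1 in the SMARCA4-null libraries and 21.2 and 40.4 in wildtype. TNNC2, fast skeletal troponin C, had 1389 and 1.16 scaled reads in the SMARCB1 null, against 4.27 and 3.31 in the SMARCA4 null. MYOG, the myogenic regulator myogenin, had 92.1 and 2.32 in the SMARCB1 null, against 0 and 0 in the SMARCA4 null. In both genes the deeper SMARCB1-null library was high and the shallower one lay at or near the level of the other lines. Of 5925 recovered genes of any depth, 75 were over 4 times higher in the deeper SMARCB1-null library than in each of the other 5 single-null and wildtype libraries. The same count was 9 or fewer for each of those 5. Haematopoietic markers were nearly absent from all groups, and only HBA1 of 13 listed reached 1000 reads. The 8 haematopoietic markers with recovered reads summed to 231 and 73.1 scaled reads in the SMARCB1 null, against 44.4 and 54.0 in the SMARCA4 null.

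**Figure D1:**
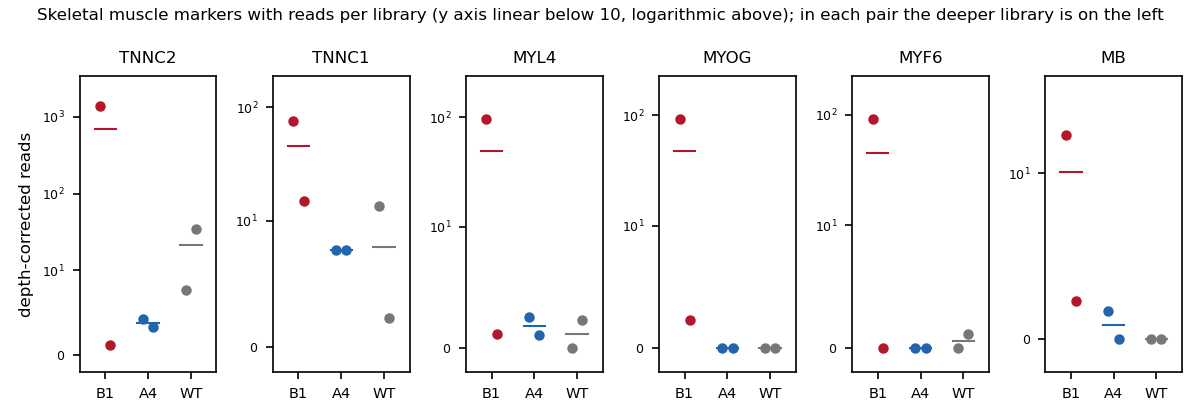
Scaled reads of the 6 skeletal muscle markers with recovered reads, 1 panel a gene, in the SMARCB1 null (B1), SMARCA4 null (A4) and wildtype (WT). Points are libraries, the deeper of each pair on the left, and bars are means. The y axis is linear below 10 and logarithmic above. The deeper SMARCB1-null library is the highest point in all 6 panels.

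Beside the signal in that library, 13 of the 14 muscle markers with 1000 or more reads were at least 2-fold higher in the SMARCB1 null. The median contrast was 8.00, and TNNT1, slow troponin T, was lower. Most of the 14 reached 1000 reads only through the SMARCB1 null, such as MYH2 with 4419 of 4586 reads. The minimum of 1000 reads therefore favoured this count and this median. Of these 14 only TNNC2 has reads by library, so the part of that library in the others was not tested. MYH2, a fast myosin heavy chain, had a group level of 2522 scaled reads in the SMARCB1 null and 1.83 in the SMARCA4 null, and DES, desmin, had 1573 and 1.74. In the authors' deposited table only NEB, nebulin, of these 14 genes was called against wildtype in the SMARCB1 null (FDR 0.00215), with a group level of 1815 in the SMARCB1 null and 269.9 in the SMARCA4 null. Genes high in 1 library only can enter the counts by fold that follow, so these are also given with a call required and without that library.

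Across the 13459 genes the contrast had a median of 0.03 and quartiles of -0.20 and 0.22. At least a 2-fold difference was seen for 529 genes higher in the SMARCB1 null, 3.93% of all, and for 729 genes lower, 5.42%. At least 4-fold, the counts were 255 higher and 252 lower. Counting only genes with an FDR under 0.05 against wildtype in at least 1 single null in the authors' deposited table left 217 higher (1.61%) and 356 lower (2.65%). That FDR compares a null with wildtype. It does not test the difference between the nulls, which no deposited value tests. Among the recovered genes 54 were at least 2-fold higher and 64 at least 2-fold lower, against 38 and 88 without the deeper SMARCB1-null library.

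**Figure D2:**
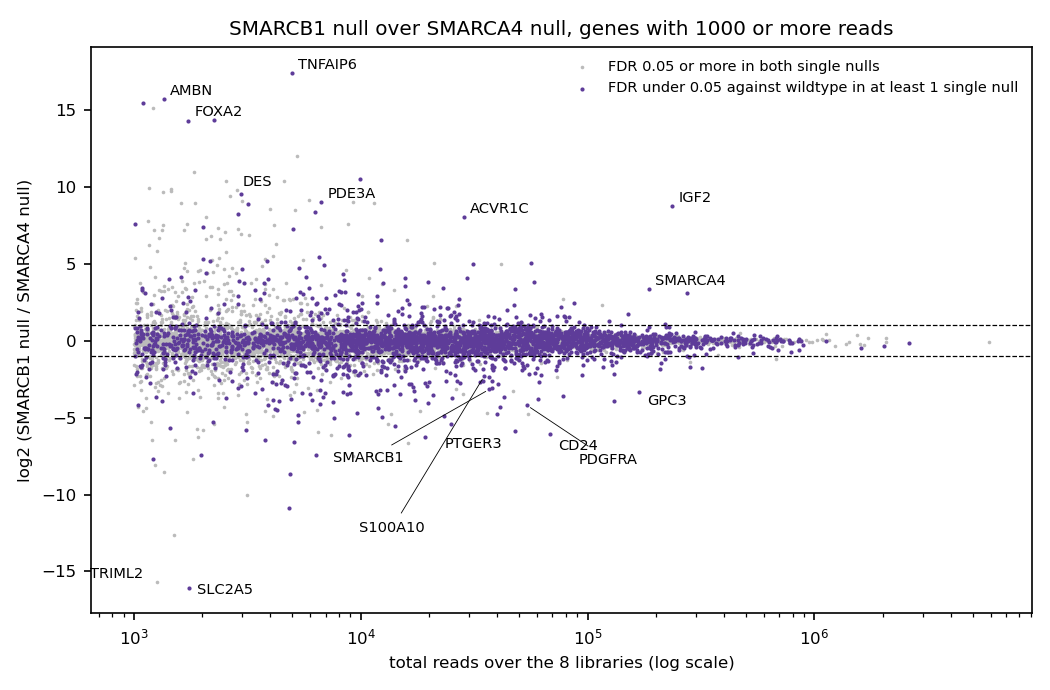
Log2 of the SMARCB1-null over the SMARCA4-null ratio (y) against total reads over 8 libraries (x, log scale), 1 point a gene, for the 13459 genes. Purple points had an FDR under 0.05 against wildtype in at least 1 single null in the authors' deposited table, grey points in neither. Dashed lines mark 2-fold. Most of the largest contrasts in both directions belong to genes with few reads, IGF2 (8.74) being an exception.

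The difference between the nulls could be tested on recovered reads. The quasi-likelihood test of edgeR was run over all 8 libraries, so the shared spread also drew on the wildtype and double-null pairs. Those pairs differed by passage and not by guide. At an adjusted p under 0.05, 216 of 1899 tested genes with 1000 or more reads were higher in the SMARCB1 null (11.4%). Another 170 were lower (8.95%), which made 20.3% in all. Most of these differences were small: 325 of the 386 calls were under 2-fold, and the median size was 0.51 on the log2 scale. For scale, the typical difference between the 2 SMARCB1-null libraries was 0.13 and that between the 2 SMARCA4-null libraries 0.10, against a typical contrast of 0.19, all as median absolute log2 values. Leaving out any 1 of the 4 single-null libraries reduced the calls in both directions. A group then rests on 1 library, and between 4719 and 4772 genes were fitted, against 3881 with every library. The part of each in the reduction was not tested.

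The 2 targeted genes and SMARCA2 come first, as a check of the labels. SMARCB1 had a group level of 887 scaled reads in the SMARCB1 null, against 7910.2 in the SMARCA4 null, a contrast of -3.16. SMARCA4 had 43104 in the SMARCB1 null and 4174 in the SMARCA4 null, a contrast of 3.37. Each target was low in its own null only. In the authors' deposited table neither was called against wildtype in the other null (SMARCA4 in the SMARCB1 null, FDR 0.639; SMARCB1 in the SMARCA4 null, FDR 0.979). SMARCA2, the other ATPase, had 2719.7 in the SMARCB1 null and 3890.4 in the SMARCA4 null, and was called in neither.

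Apart from the targets, the transcripts of the complexes were nearly level between the nulls. Of 29 SWI/SNF subunit genes, 26 were within 2-fold and the median contrast was -0.01. The exception beside the targets was GLTSCR1L, a subunit of non-canonical BAF, with 788 scaled reads in the SMARCB1 null, against 3135 in the SMARCA4 null and 1658 in wildtype. In the authors' deposited table it was called against wildtype in the SMARCA4 null (FDR 0.0419) and not in the SMARCB1 null (FDR 0.114). The 3 non-canonical BAF genes had a median contrast of -0.39, the 5 canonical BAF genes -0.05 and the 4 PBAF genes 0.11. Polycomb genes, whose complexes deposit and read repressive histone marks opposed by SWI/SNF, had a median of 0.06 over 30 members with none beyond 2-fold. Of 8 tested by edgeR, 2 were called lower in the SMARCB1 null and 0 higher, against 8.95% and 11.4% of all genes tested. They were RING1 (log2 -0.51 ± 0.08 SE, adjusted p = 0.000757) and CBX7 (adjusted p = 0.0377), though CBX7 lost its call without any 1 library.

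Among the largest differences were genes with no or few reads in one null. TNFAIP6, a secreted hyaluronan-binding protein of inflamed tissue, had 2093 and 1976 scaled reads in the SMARCB1 null, against 0 and 0 in the SMARCA4 null and 6.75 and 1.15 in wildtype. It was at least 1230.5-fold higher in the SMARCB1 null, counting 3 reads over the empty group (edgeR adjusted p = 0.000561). AMBN, the enamel matrix protein ameloblastin, had 536 and 719 in the SMARCB1 null, against 0 and 0 in the SMARCA4 null, at least 379-fold higher (edgeR adjusted p = 1.31e-08). TRIML2 of the TRIM-like family ran the other way, with 0 and 0 in the SMARCB1 null, against 364 and 861 in the SMARCA4 null and 22.2 and 36.9 in wildtype. It was at least 352-fold lower in the SMARCB1 null (edgeR adjusted p = 0.00293), a call lost with voom (adjusted p = 0.126) and in a fit of the 4 single-null libraries (adjusted p = 0.128). EMP1, an epithelial membrane protein, had 164 and 49.9 in the SMARCB1 null, against 2580.0 and 2336 in the SMARCA4 null and 13.5 and 17.3 in wildtype. Its log2 difference was -4.52 ± 0.69 SE (edgeR adjusted p = 0.0203), and the call was lost in 2 of the 4 fits with 1 library left out (adjusted p up to 0.097) and in the fit of 4 libraries (adjusted p = 0.0807). In all 4 genes the groups did not overlap, as was the case for 35.2% of the 1929 recovered genes with both SMARCB1-null libraries higher and for 26.0% with both lower. The choice of genes favoured this, since recovered genes entered the largest contrasts only without overlap and the edgeR calls were the most extreme.

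The promoters of these 4 genes are shown because these genes are among the largest differences seen in both libraries and because they share few CpG dinucleotides, the sites of DNA methylation. Each runs from 250 bases before to 50 after the annotated start, 5′ to 3′ on the gene's strand, from RefSeq on GRCh38.p14, with CpG in capitals.
TNFAIP6, chr2:151357342-151357641, plus strand: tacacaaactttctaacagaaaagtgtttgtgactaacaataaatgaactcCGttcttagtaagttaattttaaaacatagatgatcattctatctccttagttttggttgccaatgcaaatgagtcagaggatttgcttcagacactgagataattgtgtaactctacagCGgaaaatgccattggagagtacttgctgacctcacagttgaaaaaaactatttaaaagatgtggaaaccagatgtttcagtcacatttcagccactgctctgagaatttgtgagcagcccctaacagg
AMBN, chr4:70592006-70592305, plus strand: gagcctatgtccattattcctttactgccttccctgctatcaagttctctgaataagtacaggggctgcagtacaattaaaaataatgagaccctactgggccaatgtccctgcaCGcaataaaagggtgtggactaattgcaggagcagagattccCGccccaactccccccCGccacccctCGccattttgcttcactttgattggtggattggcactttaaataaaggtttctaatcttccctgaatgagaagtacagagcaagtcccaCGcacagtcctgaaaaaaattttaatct
TRIML2, chr4:188109554-188109853, minus strand: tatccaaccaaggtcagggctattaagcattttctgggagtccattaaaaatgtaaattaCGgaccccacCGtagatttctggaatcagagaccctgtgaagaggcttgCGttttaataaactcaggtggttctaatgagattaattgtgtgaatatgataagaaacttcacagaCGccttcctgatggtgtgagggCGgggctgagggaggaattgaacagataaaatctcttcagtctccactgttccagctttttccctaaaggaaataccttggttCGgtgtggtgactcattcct
EMP1, chr12:13196476-13196775, plus strand: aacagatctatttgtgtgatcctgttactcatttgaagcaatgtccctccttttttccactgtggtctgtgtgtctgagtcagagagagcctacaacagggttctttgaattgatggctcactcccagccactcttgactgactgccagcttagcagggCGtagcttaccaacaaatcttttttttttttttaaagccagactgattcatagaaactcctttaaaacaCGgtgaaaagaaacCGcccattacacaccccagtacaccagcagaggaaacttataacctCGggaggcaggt

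They hold 2, 5, 6 and 4 CpG, a description only, since few CpG was a reason to show them. AMBN and TRIML2 reached 1000 reads only through the null in which they were high. The median was 27 in the promoters of 9672 genes within 2-fold and 14 in all promoters of the table. Promoters with fewer than 10 CpG made up 29.6% of 392 genes at least 2-fold higher in the SMARCB1 null, 21.6% of 551 genes at least 2-fold lower and 8.57% of the genes within 2-fold. In genes that also had a call against wildtype in the authors' deposited table the shares were 31.0% of 168 higher and 22.1% of 271 lower. CpG-poor promoters are those of many tissue-restricted genes, and the share over all 27305 promoters of the table was 44.0%. Motifs were searched on both strands, 4 in all with none containing another, namely the AP-1 site TGACTCA, the cAMP response element TGACGTCA, the TATA box TATAAA and the hypoxia response core ACGTG. The AP-1 site was in 3.83% of the higher, 4.90% of the lower and 2.5% of the within-2-fold promoters, against 4.92% of all. Of the 4 promoters shown, those of TNFAIP6, TRIML2 and EMP1 hold it. In the same order, the cAMP response element was in 3.57%, 1.45% and 3.43%, against 1.98% of all. The TATA box was in 11%, 8.35% and 4.86%, against 12% of all, and the hypoxia core in 25%, 20.1% and 27.0%, against 21.6% of all. A match is a string of letters and no evidence of binding.

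Other genes with the largest edgeR differences were higher in the SMARCB1 null. ZNF385D, a zinc finger gene, had 664 and 846 scaled reads in the SMARCB1 null, against 0 and 1.10 in the SMARCA4 null and 443 and 276 in wildtype. Its fold rests on 1 read (1565, 95% counting interval 280.5 to 61878), and edgeR gave an adjusted p of 0.000107. NDST4, a heparan sulfate sulfotransferase, had 79.7 and 218 in the SMARCB1 null, against 0 and 1.10 in the SMARCA4 null (fold 307, 95% counting interval 54.6 to 12178). ABCD2, a peroxisomal fatty acid transporter, had 210.0 and 319 in the SMARCB1 null, against 19.6 and 13.2 in the SMARCA4 null and 10.6 and 13.9 in wildtype (log2 3.99 ± 0.31 SE, edgeR adjusted p = 2.94e-06). CCDC39, needed for the assembly of motile cilia, had 1342 and 1622 in the SMARCB1 null, against 327 and 301 in the SMARCA4 null (log2 2.24 ± 0.14 SE, edgeR adjusted p = 3e-07). GBX2, a homeobox gene of the mid-hindbrain boundary, had 292 and 338 in the SMARCB1 null, against 75.2 and 99.2 in the SMARCA4 null (log2 1.85 ± 0.25 SE, edgeR adjusted p = 0.000208). LINC01116, a non-coding RNA, was alike in size (log2 1.90 ± 0.25 SE). HAPLN1, the link protein of cartilage, had only 15.7 and 30.2 scaled reads in the SMARCB1 null, against 0 and 0 in the SMARCA4 null. HAPLN1 and FAAH2, a fatty acid amide hydrolase, were called at edgeR adjusted p = 0.0454 and 0.0458. Each lost its call in 3 other edgeR, DESeq2 or voom settings. With 1 library left out, HAPLN1 lost it in all 4 fits and FAAH2 in 3 of the 4. The SMARCB1 null and the SMARCA4 null held 40 and 0 of the 1840 reads of HAPLN1, and 259 and 1 of the 2085 reads of NDST4. Both genes passed the read minimum only through libraries outside these nulls.

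The genes lower in the SMARCB1 null lay differently relative to wildtype. S100A10, a calcium-family adaptor of annexin A2, was on opposite sides of wildtype, with 1796 and 2102 scaled reads in the SMARCB1 null, against 9093 and 9637 in the SMARCA4 null and 4207 and 4445 in wildtype. Its difference was -2.26 ± 0.10 SE on the log2 scale (edgeR adjusted p = 9.36e-09). NUAK2, a kinase of the AMPK family, had 131 and 113 in the SMARCB1 null, against 641 and 855 in the SMARCA4 null and 297 and 266 in wildtype. SDSL, a serine dehydratase-like enzyme, had 38.2 and 53.4, 447 and 538, and 231 and 227 in the same order. LRGUK, known for sperm development, had 43.8 and 66.2, 326 and 401, and 117 and 99.3. By contrast MT1F, a metallothionein that binds zinc and copper, was low in the SMARCB1 null alone, with 148 and 169, against 805 and 648 in the SMARCA4 null and 692 and 827 in wildtype (log2 -2.19 ± 0.18 SE, edgeR adjusted p = 4.76e-06). CASC10 showed the same form, with 107 and 139 in the SMARCB1 null, against 824 and 786 in the SMARCA4 null and 769 and 764 in wildtype. BST1, the ectoenzyme CD157, had 41.6 and 12.8 in the SMARCB1 null, against 278 and 298 in the SMARCA4 null, and lost its edgeR call in 2 of the 4 fits with 1 library left out (adjusted p up to 0.118). PPL, the cell junction protein periplakin, was highest in the SMARCA4 null, with 163 and 238 in the SMARCB1 null, against 1067 and 1323 in the SMARCA4 null and 312 and 227 in wildtype.

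**Figure D3:**
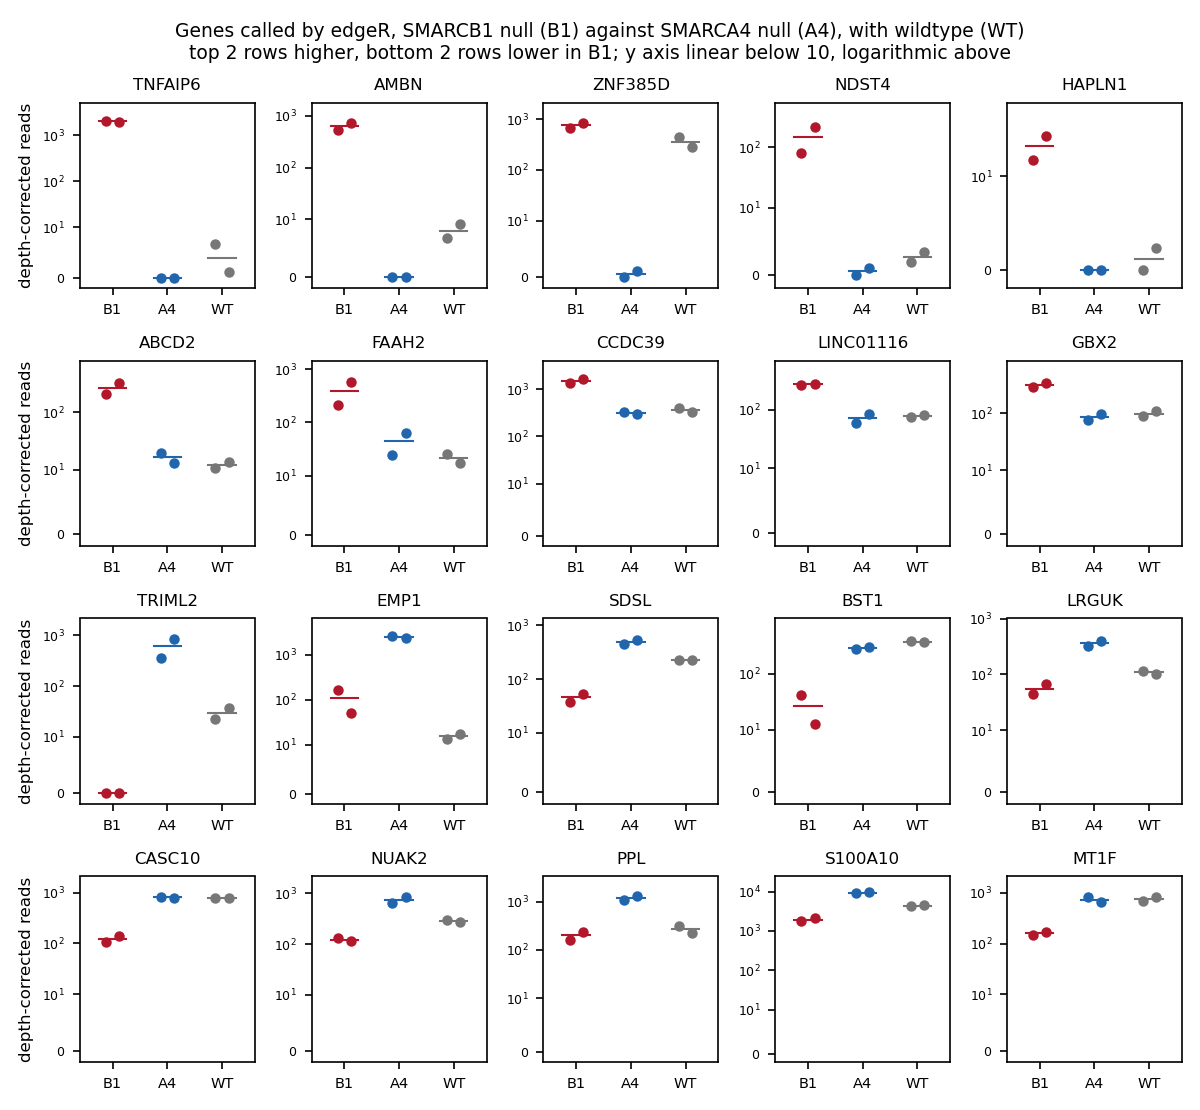
Scaled reads of the 10 genes highest (top 2 rows) and the 10 lowest (bottom 2 rows) in the SMARCB1 null among edgeR calls with 1000 or more reads, in the SMARCB1 null (B1), SMARCA4 null (A4) and wildtype (WT). Points are libraries, the deeper of each pair on the left, and bars are means. The y axis is linear below 10 and logarithmic above. Both SMARCB1-null points lie on one side of both SMARCA4-null points in every panel, which the choice of the most extreme calls favours (35.2% of all recovered genes lie above and 26.0% below in this way).

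Other genes with large contrasts were mostly known only by group level. On the higher side stood FOXA2, a pioneer factor of endoderm, with 230.2 scaled reads in the SMARCB1 null, against 0 in the SMARCA4 null and 6.09 in wildtype, at least 124-fold higher. DSG1, the desmosomal cadherin desmoglein 1, had 521 in the SMARCB1 null and 0 in both other lines, at least 304-fold higher than in the SMARCA4 null. IGF2, the imprinted insulin-like growth factor 2, had 36101 in the SMARCB1 null, against 84.2 in the SMARCA4 null and 154 in wildtype, the most abundant of the group. In the authors' deposited table its FDR against wildtype was 3.12e-21 in the SMARCB1 null and 0.765 in the SMARCA4 null. ACVR1C, the activin and nodal receptor ALK7, had 10043 in the SMARCB1 null, against 38.3 in the SMARCA4 null. PDE3A, a cyclic nucleotide phosphodiesterase, had 1707 and 3.26. The GTPase gene GIMAP4 had 1771 in the SMARCB1 null and 3.64 in the SMARCA4 null, JAKMIP2 had 3974 and 2.72, and the potassium channel gene KCNH5 had 486 and 2.51. NKAIN2 had 761 and 1.02, FSTL5 276 and 0.899, RALYL 176 and 1.03 and LINC01189 242 and 0. PLXDC2, a plexin-domain protein, had 688 in the SMARCB1 null and 2.11 in the SMARCA4 null, and was highest in wildtype (2497). GIMAP4, KCNH5 and DSG1 reached 1000 reads only through the SMARCB1 null, such as GIMAP4 with 3102 of 3191 reads. The read minimum therefore favoured their large contrasts. FOXA2, FSTL5, RALYL and LINC01189 passed it only through libraries outside these nulls. Of the 1732 reads of FOXA2, the SMARCB1 null held 403 and the SMARCA4 null 0.

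On the lower side SLC2A5, the fructose transporter GLUT5, had 0.000195 scaled reads in the SMARCB1 null, which stands for none, and 798 in the SMARCA4 null, against 37.9 in wildtype. It was at least 407-fold lower in the SMARCB1 null. CD24, a surface glycoprotein of progenitor and epithelial cells, had 157 in the SMARCB1 null, against 10400.1 in the SMARCA4 null and 14960.0 in wildtype. PTGER3, a prostaglandin E2 receptor, had 313 in the SMARCB1 null and 18599 in the SMARCA4 null. SLIT3, an axon guidance ligand, had 22.3 and 1581, and PPFIA2, a presynaptic scaffold protein, had 49.5 and 3814. SDC2, the heparan sulfate proteoglycan syndecan-2, had 113 and 5324. LRRC2 had 13.8 in the SMARCB1 null, against 772 in the SMARCA4 null and 770.4 in wildtype, and in the authors' deposited table its FDR against wildtype was 7.82e-60 in the SMARCB1 null. MB21D1, the DNA sensor cGAS, had 5.00 in the SMARCB1 null and 857 in the SMARCA4 null, LINC01206 had 9.59 and 499.6, and FAM19A4 had 16.3 and 1411. GLYATL2 had 1.15 in the SMARCB1 null, against 2132 in the SMARCA4 null and 194 in wildtype. DPP10, ZNF385B and CD200 had 0.577, 1.69 and 1.84 in the SMARCB1 null and 238, 299 and 178 in the SMARCA4 null, and were highest in wildtype (1999, 2986 and 928). MGAT4C was near zero in both nulls, with 0 and 0 in the SMARCB1 null and 2.56 and 2.20 in the SMARCA4 null. It had 628 and 514 in wildtype, so its contrast of -7.69 compares a few reads. SLC2A5, GLYATL2, MB21D1, LINC01206 and FAM19A4 reached 1000 reads only through the SMARCA4 null, such as SLC2A5 with 1659 of 1747 reads. The read minimum therefore favoured their large contrasts.

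Some genes moved to opposite sides of wildtype, with a call in each null in the authors' deposited table. Beside TNFAIP6, AMBN, FOXA2, JAKMIP2 and KCNH5, those with the largest smaller change that were higher in the SMARCB1 null were NELL2, GRM8 and VGLL3. NELL2, a secreted neural protein, had 17476 scaled reads in the SMARCB1 null, against 522 in the SMARCA4 null and 3435 in wildtype. GRM8, a glutamate receptor, had 1348, 75 and 389, and VGLL3, a cofactor of TEAD factors, had 10536, 738 and 1896 in the same order. In the opposite orientation, beside SLC2A5, SDC2, PTGER3 and NUAK2, GPC3, the oncofetal proteoglycan glypican-3, had 5707 in the SMARCB1 null, against 57821 in the SMARCA4 null and 18204 in wildtype. Its log2 ratios to wildtype in the authors' deposited table were -1.67 and 1.67, with FDRs of 1.48e-21 and 5.98e-68. ARID5B, a DNA-binding factor, had 1044, 13369.7 and 3462, RAP1GAP2 had 727, 4957 and 1972, and the receptor kinase gene LTK had 131, 992 and 295.

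**Figure D4:**
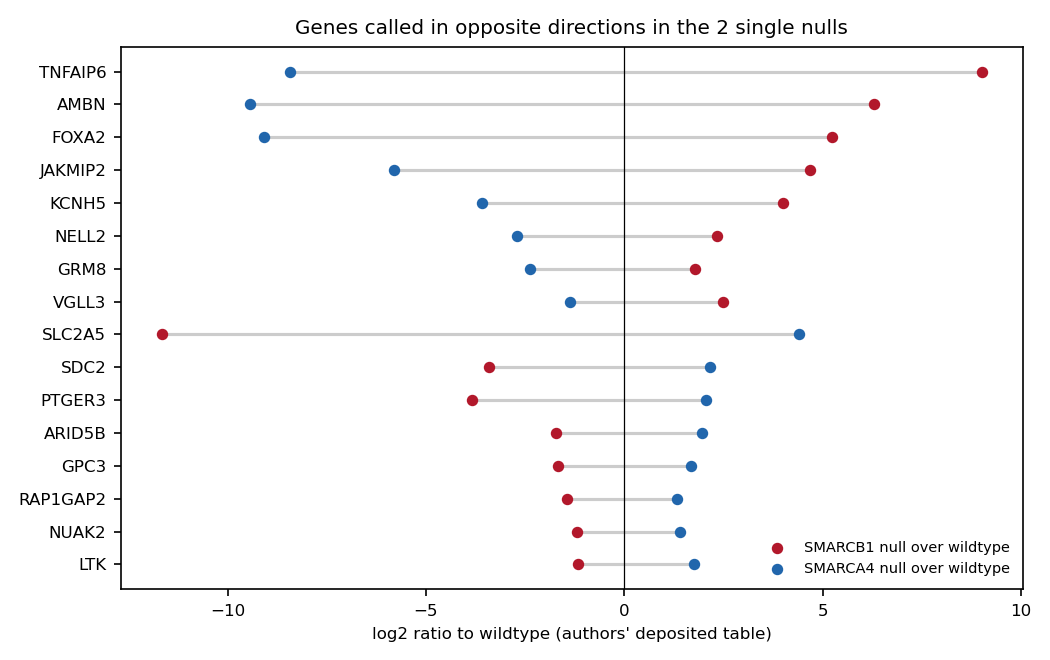
Log2 ratio to wildtype in the authors' deposited table (x) of the SMARCB1 null (red) and the SMARCA4 null (blue) for 16 genes called in opposite directions, 8 in each orientation (rows). Lines join both values of a gene. GPC3 lies at -1.67 in the SMARCB1 null and 1.67 in the SMARCA4 null. Points of genes with no reads in a null (TNFAIP6, AMBN, FOXA2 and SLC2A5) have no defined distance from 0 beyond their direction.

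Gene groups were compared next, with members named where they were at least 2-fold different or called, a choice made after their values were seen. Each count is read against the share of all genes at least 2-fold higher (3.93%) or lower (5.42%). Genes of glycolysis and the hypoxia response were lower in the SMARCB1 null than in the SMARCA4 null. Of 36 members 35 had a contrast below 0, with a median of -0.52, and 10 were at least 2-fold lower and none at least 2-fold higher. LOX, lysyl oxidase, had 718 scaled reads in the SMARCB1 null, against 5007 in the SMARCA4 null and 798 in wildtype. SLC16A3, the lactate exporter MCT4, had 1354, 8402 and 1872, PFKFB4, a regulator of glycolytic flux, 952, 3029.6 and 630.1, and PDK1, the kinase that shuts pyruvate out of the citrate cycle, 3851, 7915 and 3676. Against wildtype 4 of the 36 were called higher in the SMARCB1 null and 20 in the SMARCA4 null in the authors' deposited table, where 8.86% and 8.32% of all genes were. Called lower were 1 in the SMARCB1 null and 0 in the SMARCA4 null, against 6.84% and 5.42% of all genes in the authors' deposited table. EGLN3 and NDRG1 were also at least 2-fold lower, and no member had recovered reads that edgeR tested.

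Cholesterol synthesis and SREBP target genes lay lower as well, with a contrast below 0 in 22 of 23, a median of -0.59 and 3 at least 2-fold lower. HMGCS1, which makes HMG-CoA for sterols, had 9541 scaled reads in the SMARCB1 null, against 22026 in the SMARCA4 null and 15848 in wildtype. STARD4, a sterol carrier, had 1257, 3067 and 1655, and MSMO1, a sterol oxidase, 4211, 9245 and 6031. Both members that edgeR could test were called lower in the SMARCB1 null, as were 8.95% of all genes tested. MVD, the last enzyme before isopentenyl diphosphate, had 3135 and 3178 in the SMARCB1 null, against 4826 and 5728 in the SMARCA4 null (log2 -0.74 ± 0.09 SE, adjusted p = 0.000133). SQLE, squalene epoxidase, had 9199 and 8522 in the SMARCB1 null, against 12169 and 12302 in the SMARCA4 null (log2 -0.47 ± 0.08 SE, adjusted p = 0.00133, up to 0.0605 with 1 library left out).

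AP-1 and immediate-early genes, induced within minutes of growth signals, were lower in the SMARCB1 null in 14 of 18, with a median of -0.50 and 3 beyond 2-fold. JUN had 794 scaled reads in the SMARCB1 null, against 3023 in the SMARCA4 null and 319 in wildtype, and FOSL2 had 437, 1310.2 and 128. NR4A2, an orphan nuclear receptor, had 155, 1721 and 2162, low in the SMARCB1 null only. Of 4 tested by edgeR, 2 were called lower, against 8.95% of all genes tested. JUNB had 2038 and 1900.2 in the SMARCB1 null, against 2478 and 2696 in the SMARCA4 null and 1511 and 1478 in wildtype (adjusted p = 0.00693). EGR1 had 664 and 840.4 in the SMARCB1 null, against 1114 and 1349 in the SMARCA4 null and 212 and 253 in wildtype (adjusted p = 0.00994). Both lost their call when any 1 library was left out. ERK feedback genes had a median of -0.35 over 11 members, with ETV1 and ETV4 at least 2-fold lower and neither called in either null in the authors' deposited table. Among YAP-TEAD targets CTGF had 138 in the SMARCB1 null and 889 in the SMARCA4 null and CYR61 had 533 and 1896, while the 15 members had a median of -0.15.

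HOX genes, which set position along the body axis, went the other way. Of 25 members 22 had a contrast above 0, the median was 0.74, and 8 were at least 2-fold higher against 1 lower, HOXA13. The HOXC cluster stood highest, with 5 of 6 genes at least 2-fold higher and a median of 1.66, against 0.87 for HOXB, 0.47 for HOXA and 0.37 for HOXD. HOXC8 had 3014 scaled reads in the SMARCB1 null, against 897 in the SMARCA4 null and 1052 in wildtype, HOXC6 1316, 614 and 466, and HOXB13 3751, 1577 and 1283. HOXC13 and HOXB9 had larger contrasts (2.74 and 3.44) but were called in neither null in the authors' deposited table. HOXA13 had 2861 in the SMARCB1 null, against 9752 in the SMARCA4 null and 6482 in wildtype. Of 5 tested by edgeR, 2 were called higher in the SMARCB1 null and 0 lower, against 11.4% and 8.95% of all genes tested. HOXA5 had 657 and 719 in the SMARCB1 null, against 355 and 403 in the SMARCA4 null and 923 and 908 in wildtype (log2 0.86 ± 0.15 SE, adjusted p = 0.00174). HOXB2 was called at adjusted p = 0.0488 and lost the call in 3 other settings with every library (adjusted p up to 0.104) and in all 4 fits with 1 library left out (adjusted p up to 0.313). HOXA5 lost its call in 3 of the 4 fits with 1 library left out.

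Cell cycle genes had a median of -0.09 over 40 members, and the D cyclins differed in opposite directions. CCND1 had 2037 scaled reads in the SMARCB1 null, against 229 in the SMARCA4 null and 287 in wildtype, whereas CCND2 had 184, 1339 and 2024. CDK6, a partner of both, had 1534, 5287 and 11719. CDK6 was called against wildtype in both nulls in the authors' deposited table, and the cyclins in the SMARCB1 null only. By edgeR CCNE1 was higher (log2 0.36 ± 0.09 SE, adjusted p = 0.0173) and RB1 lower (log2 -0.35 ± 0.09 SE, adjusted p = 0.0172) in the SMARCB1 null, and both calls were lost with any 1 library left out.

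Among genes of the contractile apparatus and its regulator SRF, 14 of 17 had a contrast below 0, with a median of -0.49, yet ACTA2, smooth muscle actin, was far higher in the SMARCB1 null. It had 4438 scaled reads there, 176 in the SMARCA4 null and 314 in wildtype, and in the authors' deposited table its FDR against wildtype in the SMARCB1 null was 7.41e-38. TPM2 had 1687, 519 and 467. ACTG2 was low in both nulls, with 104, 47.7 and 1686. CALD1, caldesmon, had 1194 in the SMARCB1 null, against 7363 in the SMARCA4 null and 6073 in wildtype, and TGFB1I1 (Hic-5) had 157, 1041 and 755. FN1, fibronectin, among the epithelial and mesenchymal markers, had 987, 6142 and 5143. It was the 1 of 10 mesenchymal markers at least 2-fold lower, against 3 at least 2-fold higher. These are bulk samples, and the genes above whose levels are given have no recovered reads. The skeletal muscle signal of the deeper SMARCB1-null library was present beside the higher values of ACTA2 and TPM2. Its part in them was not tested. The summed level of the 24 muscle markers in the table was 28586 in the SMARCB1 null, against 1734 in the SMARCA4 null and 1617 in wildtype.

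Collagen genes were split, with 5 at least 2-fold higher and 3 lower of 19. COL5A2 had 2238 scaled reads in the SMARCB1 null, against 541 in the SMARCA4 null and 256 in wildtype, and COL12A1 had 174, 60.4 and 4.49. Both were called against wildtype in the SMARCB1 null in the authors' deposited table, and COL3A1 and COL25A1, the other large contrasts, were not. COL4A2, the fifth, showed the single-library pattern, with 86.5 and 3.48 in the SMARCB1 null, against 3.42 and 3.31 in the SMARCA4 null.

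Signalling receptors and ligands held some of the widest differences, without a common direction. PDGFRA, the PDGF receptor alpha, had 997 scaled reads in the SMARCB1 null, against 18252 in the SMARCA4 null and 138 in wildtype, and in the authors' deposited table its FDR against wildtype was 0.0346 in the SMARCB1 null and 7.8e-12 in the SMARCA4 null. FGFR2 had 395, 5133 and 6709, low in the SMARCB1 null only. The ligands PDGFD (319, 32.6 and 36.4) and VEGFC (2071, 694 and 209) and the VEGFC receptor FLT4 (14299, 4387 and 3524) were higher in the SMARCB1 null. Of 19 such genes, 6 were at least 2-fold higher and 2 lower. In the TGF-beta and BMP pathway 5 of 38 were at least 2-fold higher and 4 lower, and only LTBP1, a carrier of latent TGF-beta, was also called in the authors' deposited table (2754, 439.8 and 141). BMP7 differed more between the libraries of a null than between the nulls, with 1878 and 107 in the SMARCB1 null, against 5432 and 492 in the SMARCA4 null.

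In the Wnt pathway 6 of 28 genes were at least 2-fold higher and 5 lower. WNT3 had 1349 scaled reads in the SMARCB1 null, against 9103 in the SMARCA4 null and 1321 in wildtype, and the co-receptors LGR4 (14325, 50114 and 19870.2) and LRP6 (18808, 37755 and 13324) were also highest in the SMARCA4 null. WNT10B was called lower in the SMARCB1 null by edgeR (log2 -0.66 ± 0.17 SE, adjusted p = 0.017), with 578 and 442, against 836 and 772 in the SMARCA4 null. The call was lost in 3 of the 4 fits with 1 library left out (edgeR adjusted p up to 0.205). The receptor gene FZD10 had 260.2, 40.2 and 1158, low in both nulls and lower in the SMARCA4 null. LGR5 had the largest contrast, 132 against 0.854, and was called in neither null in the authors' deposited table.

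Hedgehog pathway genes lay on both sides. The transcriptional targets GLI1 (103 in the SMARCB1 null, against 263 in the SMARCA4 null and 89.3 in wildtype) and PTCH1 (3563, 8509 and 4304) were lower in the SMARCB1 null than in the SMARCA4 null. Of the co-receptors, BOC was lower (246, 2548 and 462), whereas CDON (6492, 2737 and 2444) and GAS1 were higher. GAS1 had 122 and 131 in the SMARCB1 null, against 59.8 and 70.5 in the SMARCA4 null (log2 0.96 ± 0.25 SE, edgeR adjusted p = 0.0198). DISP1, which releases the ligand, had 421 and 382, against 212 and 192 (log2 0.99 ± 0.18 SE, edgeR adjusted p = 0.00207). Over the 12 members the median contrast was -0.01. GAS1 lost its call with any 1 library left out, and DISP1 with 3 of the 4.

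Of 54 lineage transcription factors 9 were at least 2-fold higher and 6 lower in the SMARCB1 null, with a median of 0.02. TWIST1, a mesenchymal factor, had 2577 and 2467 scaled reads in the SMARCB1 null, against 1114 and 1118 in the SMARCA4 null and 1187 and 1081 in wildtype (log2 1.18 ± 0.10 SE, edgeR adjusted p = 4.76e-06). TBX2 had 1659 and 1717, against 942 and 956 (log2 0.83 ± 0.11 SE, edgeR adjusted p = 0.000176). MSX1 was lower, with 784 and 810.2 in the SMARCB1 null, against 1466 and 1218 in the SMARCA4 null (log2 -0.75 ± 0.13 SE, edgeR adjusted p = 0.00132). MSX1 lost its call in 3 of the 4 fits with 1 library left out, and TWIST1 and TBX2 in none. OTX2, a factor of forebrain and pluripotent cells, had 2019 in the SMARCB1 null, against 7559 in the SMARCA4 null and 22307 in wildtype. LHX9 had 2446, 293 and 909.6.

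The remaining lists had medians near 0. Ribosomal protein genes had a median of 0.02 over 45 members, and MHC class I presentation genes -0.05 over 16. ATF4 targets and genes of the unfolded protein response together had -0.03 over 23. Of these 23 only VLDLR, listed as an ATF4 target, was beyond 2-fold (369.6 in the SMARCB1 null and 1693 in the SMARCA4 null). Interferon-stimulated genes had a median of 0.06 over 15. Of 5 tested by edgeR, USP18 was higher and IFI35 lower in the SMARCB1 null (adjusted p = 0.0101 and 0.00412). Of all genes tested, 11.4% were higher and 8.95% lower. The calls of USP18 and IFI35 were lost with any 1 library left out. The 19 p53 targets had a median of -0.04. FAS (1709, 467 and 288) and SESN1 (6069.8, 2735 and 1143) were at least 2-fold higher and PHLDA3 (contrast -1.05) at least 2-fold lower. Neuronal markers had a median of -0.14 over 22 members, with 4 higher and 5 lower. Contrasts in this list ran from -3.67 to 2.33. Of 2 neuronal markers tested by edgeR, 0 were called higher and 0 lower. The 4 of 24 neuronal markers with recovered reads summed to 239 and 145 scaled reads in the SMARCB1 null. Their sums were 1689 and 1718 in the SMARCA4 null and 1210 and 1689 in wildtype. These sums describe those 4 genes and not the list. Integrin and laminin genes had a median of -0.10 over 20 members and imprinted genes -0.18 over 13. Epithelial and mesenchymal markers had a median of -0.06 over 15, which was -0.59 with members of 300 or more reads. The epithelial markers among them had a median of -1.27 and the mesenchymal ones 0.22. Fewer cells of a kind and less RNA per cell cannot be told apart in such samples.

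**Figure D5:**
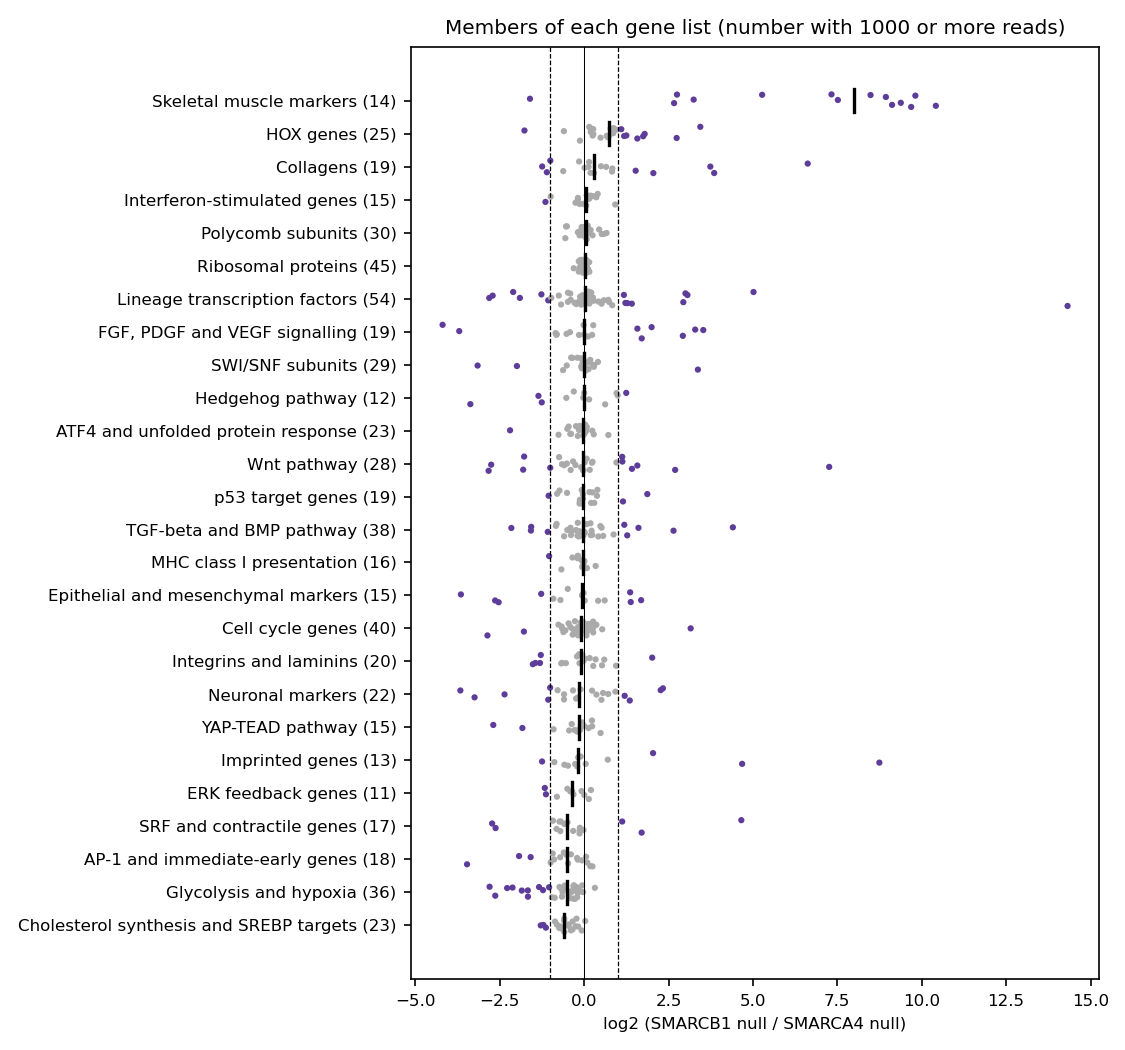
Log2 of the SMARCB1-null over the SMARCA4-null ratio (x) of the members of 26 gene lists (rows, number of members with 1000 or more reads in brackets). Points are genes, purple at 2-fold or more, vertical bars are medians and dashed lines mark 2-fold. The medians run from -0.59 for cholesterol synthesis genes to 8.00 for skeletal muscle markers, of which TNNC2 alone among the plotted members has reads by library. Most of the plotted muscle markers reached 1000 reads only through the SMARCB1 null.

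Chromosome medians separated the nulls little. Median contrasts by RefSeq chromosome ran from -0.02 for X to 0.06 for chromosome 16, without Y. The share of genes at least 2-fold apart ran from 6.25% on chromosome 22 to 13.7% on chromosome 4. Chromosome 4 had 42 higher and 24 lower of 481 genes, and chromosome 19 had 9 higher and 54 lower of 909. Over all genes 3.93% were higher and 5.42% lower. These counts were not tested. Runs of 3 or more neighbouring genes that all differed at least 2-fold in one direction numbered 24 and held 83 genes, 11 higher and 13 lower. These families were picked after the values were seen. The longest run, 9 genes on chromosome 5, consists of clustered protocadherins, surface proteins of neurons, with PCDHB2 at 29.3 scaled reads in the SMARCB1 null, against 379 in the SMARCA4 null and 129 in wildtype. Of 9 protocadherin beta genes 8 were at least 2-fold lower, and 1 was called in a single null in the authors' deposited table. These genes resemble each other closely, so reads may be shared among them and single values are uncertain. The same holds for the metallothioneins. A run of 4 metallothioneins on chromosome 16 was lower, MT2A (1762, 4733 and 5469), MT1E (1549, 5698 and 6902), MT1M and MT1F, 3 of them called in the authors' deposited table. On chromosome 1 S100A10, S100A11 (512, 4814 and 556) and S100A6 (204, 1893 and 707) lay together and were all lower. The 4 genes HOXC4, HOXC5, HOXC6 and HOXC8 formed a run on chromosome 12 that was higher. A run of 5 myosin heavy chain genes on chromosome 17 was higher, with no reads by library, and the part of the deeper SMARCB1-null library in it was not tested.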

How the data were processed

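A stranded mRNA kit was used for the RNA-seq libraries, per the labels' protocols, and STAR, Partek 4.0 and hg19 are named in the submitters' processing notes. How reads were counted, normalized and tested is not given in the sources used here. Per gene, the authors' deposited tables hold an estimated count summed over 8 libraries, a ratio and a signed fold score of each null over wildtype, a p-value and its step-up FDR. The signed score was not used. Both samples of a group enter each ratio.

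The contrast is log2 of the SMARCB1-null ratio over the SMARCA4-null ratio, for genes with 1000 or more reads. No pseudocount was added to it. The deposited ratios were modelled as already holding a small constant, which sets the contrast of a gene with no reads in a null. Reads per library were solved as whole numbers from the deposited ratios, with a tolerance of 0.001 for a whole total, for 5934 of 8956 genes tried. Of 8956 decoys with altered ratios 1 was solved, but the tolerances on the ratios had been set so that decoys gave no solution. The solver gave the right reads for 2216 of 2216 test genes with known reads, whose ratios came from its own model. Neither count is an independent error rate for the recovered reads. Members and lists were chosen with earlier results of these data known. Genes were named by rule, starting with the targeted genes and SMARCA2. Next came the 15 largest contrasts each way with an FDR under 0.05 against wildtype in at least 1 single null. Where reads were recovered, these also had to show no overlap between the single nulls. The 10 largest edgeR calls each way followed, and the 8 genes each way called in opposite directions with the largest smaller change. Recovered reads were tested with edgeR 4.0.16 (R 4.3.3), quasi-likelihood, robust, all 8 libraries sharing 1 spread, with Benjamini-Hochberg adjustment. DESeq2 1.42.0 and limma 3.58.1 (voom) were alternatives. On simulated data for this comparison (3881 genes) edgeR recovered 34% of 2-fold and 64% of 4-fold changes, with 4 false calls among 3681 unchanged genes. Whether these values hold for the recovered reads, in which a single library stood apart, was not tested. Intervals are at 95% and cover counting error only, and a group with no reads was set to 3 reads. Whether the 2 samples of a group came from separate cultures is not stated beyond their guides, and the p-values reflect only how these samples differ, which may be technical. Promoters are RefSeq sequences on GRCh38.p14, matched by symbol, and neighbours follow RefSeq order. Some genes are not reported here.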

Additional observations from a re-analysis of the deposited data

How the results depend on the processing

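No paired analysis was possible because the recovered reads could be tied to the deeper and the shallower library of a group but not to the sample titles or guides. The count of genes at least 2-fold higher in the SMARCB1 null was 807 with a minimum of 300 reads and 234 with a minimum of 5000, 255 at 4-fold, and 217 with an FDR under 0.05 also required. The count at least 2-fold lower was 375 with a minimum of 5000 reads, 252 at 4-fold and 356 with the FDR required. Each of these settings other than the lower read minimum only removes genes. The edgeR calls with 1000 or more reads were 184 higher and 181 lower with TMM scaling, 261 and 204 with DESeq2, and 120 and 125 with no filter but a total of 10 reads. With 1 single-null library left out they ranged from 27 to 68 higher and from 44 to 77 lower, the lone library then being assumed to vary like the other groups. Of 39 edgeR-called genes that are named or listed, 30 kept their call in all settings that use every library, 19 lost it in some fit with a library left out and 0 reversed. List medians moved for AP-1 genes (-0.52 with members of 300 or more reads, -0.53 centred on the median of all genes) and, with members of 300 or more reads, for interferon-stimulated genes (-0.029), SRF genes (-0.33), the Hedgehog pathway (0.074), FGF, PDGF and VEGF signalling (0.12), epithelial and mesenchymal markers (-0.59) and haematopoietic markers (1.07). The median of chromosome 19 was 0.021 with 5000 or more reads. The cause of these moves was not tested. In the authors' shorter table, which holds 36 of 159 named genes, 32 had a contrast within 0.1. The others were AMBN (14.72), DSG1 (13.02), FOXA2 (12.93) and SLC2A5 (-14.54), which have no reads in one null. Depth limits the genes with few reads most, and the difference between the nulls has no test outside the recovered genes.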
